A study of Mus musculus with 4 samples.

Results

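The genes described here are the keratins and the keratin-associated proteins of the mouse, taken by their names on the array: Krt followed by a digit, or Krtap. Of 17034 genes with at least 3 usable probes, 67 met that rule, and they carried 1215 usable probes. They comprise 23 type I keratins, 20 type II keratins and 24 Krtap genes. No gene with such a name fell short of 3 probes: the smallest were Krtap5-2 with 3 probes and Krt86 with 4 probes.

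Keratins build the intermediate filaments of epithelial cells, and each filament is made of pairs of 1 acidic type I and 1 basic or neutral type II protein. Krtap proteins embed the keratin filaments of the hair shaft. The 3 families lie in gene clusters, and outside epithelia most of their members are silent, blood cells included. Decitabine is a cytosine analogue that is built into DNA and traps DNA methyltransferases, so that methylation is lost as cells divide.

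DNA methylation was measured in mouse leukaemic cells by methylated DNA immunoprecipitation (MeDIP), in which an antibody enriches DNA that carries methylated CpG, followed by Agilent promoter and CpG arrays. There were 4 groups with 1 array each: KO cells with decitabine, WT cells with decitabine, KO cells without treatment and WT cells without treatment. Decitabine was given at 20 nM on 3 days, 24 h apart. Harvest was at 72 h in all groups, and the medium held human interleukin-6, murine interleukin-3 and murine stem cell factor. The labels disagree on the deleted gene: the source names give Mll5, and the genotype field gives HOXA9. All 4 groups are labelled with 1 cell line, MII5, WT cells included, and nothing in the labels says how many clones or cultures it stands for.

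Each array paired MeDIP DNA, labelled with Cy3, and unenriched input DNA, labelled with Cy5, so dye bias and enrichment cannot be told apart. Every group lay on a slide of its own, and slide and group cannot be told apart. Since a group had 1 array only, nothing measures the spread between cultures, and comparisons of 2 arrays carry no p-value. The arrays measured DNA, so the cell type could not be checked by marker expression. The input did not settle the deletion either. Over Mll5, 3 of 4 probes gave input well above background on the KO decitabine array and 4 of 4 on each of the other arrays. Over Hoxa9 the counts were 27 and 34 of 38 in KO and WT decitabine cells and 31 and 33 in KO and WT untreated cells. Median log2 input over Mll5, relative to the array's median probe, was lower in KO cells. It was 0.21 and 0.65 in KO and WT decitabine cells and 0.37 and 0.77 in KO and WT untreated cells. Over Hoxa9 it was -0.31 and -0.34 in KO and WT decitabine cells and -0.34 and -0.22 in KO and WT untreated cells. These differences were not tested. MeDIP was well above background at only 16.1% and 14.2% of usable probes on the KO and WT decitabine arrays, and at 4.09% and 4.08% on the KO and WT untreated arrays.

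The type I genes occupy chromosome 11 except Krt18, which lies beside its partner Krt8 on chromosome 15, where all type II genes lie. The Krtap genes are on chromosomes 16 (15 genes), 11 (4 genes), 7 (4 genes) and 10 (1 gene). The clusters differ in base composition. In the 500 bp around a probe, the median gene held 3.51 CpG in the Krtap class, 7.10 in type I and 6.89 in type II, against 11.8 over all genes. Among the 1215 probes, 724 lay upstream of their gene, 190 in exons, 209 in introns and 53 downstream, and 39 belonged to 3 genes that the annotation used here does not place (Krt72, Krt85 and Krtap16-9).

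The probes with the highest MeDIP to input ratio among those with MeDIP well above background on all 4 arrays show sites with signal in every group. The highest probe of type I and the 2 highest of type II and of the Krtap class are given. They are written 5′ to 3′ on the plus strand of mm9, with every CpG in capitals. The Krt75 probe is exonic at chr15:101394831-101394882, and the Krt84 probe is intronic at chr15:101362071-101362126. The Krt222 probe lies upstream of its gene at chr11:99108507-99108566. The Krtap5-4 probe is exonic at chr7:149490358-149490414, and the Krtap8-2 probe is exonic at chr16:88896411-88896470.
Krt75: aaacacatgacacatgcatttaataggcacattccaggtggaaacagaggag
Krt84: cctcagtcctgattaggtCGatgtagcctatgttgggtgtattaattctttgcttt
Krt222: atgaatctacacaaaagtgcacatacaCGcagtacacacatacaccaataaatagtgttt
Krtap5-4: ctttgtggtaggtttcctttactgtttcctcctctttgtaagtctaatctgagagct
Krtap8-2: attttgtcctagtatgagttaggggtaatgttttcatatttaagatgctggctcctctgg
Only the Krt84 and Krt222 probes contain a CpG, 1 each, and the other 3 contain none. Of the 29 keratin and Krtap probes that were well above background on all 4 arrays, 17 contained no CpG of their own. The immunoprecipitated fragments are longer than a probe, so the probe's own letters do not hold all the CpG that the antibody can bind. The Krtap8-2 probe has 13 CpG in its 500 bp window, and the Krt75 probe has 3. The log2 ratio of the Krt75 probe was 1.65 and 2.03 in KO and WT decitabine cells and 2.05 and 1.97 in KO and WT untreated cells, alike on the 4 arrays. The Krtap5-4 probe had 1.23 and 1.29 in KO and WT decitabine cells and 0.62 and 2.28 in KO and WT untreated cells, so the untreated arrays lay on both sides of the decitabine ones.

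A second set shows a run of 5 neighbouring probes at Krtap14, a hair protein gene, which had the highest mean ratio of all 67 genes. The run was chosen after its values were seen. It spans chr16:88826351-88827234 in mm9, 310 to 1138 bp upstream of the gene's start in GENCODE vM1, and the probes are given from the farthest to the nearest by that distance. The annotations disagree on this start: the RefSeq start lies 323 bp farther upstream, so that the run reaches from 814 bp upstream to 12 bp downstream of it, and 3 of the 5 probes lie in the RefSeq promoter printed below.
Krtap14, 1138 bp: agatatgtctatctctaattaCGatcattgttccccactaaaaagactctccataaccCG
Krtap14, 670 bp: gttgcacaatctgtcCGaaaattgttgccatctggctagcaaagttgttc
Krtap14, 530 bp: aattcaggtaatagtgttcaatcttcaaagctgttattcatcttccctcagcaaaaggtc
Krtap14, 422 bp: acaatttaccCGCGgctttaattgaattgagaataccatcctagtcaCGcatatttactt
Krtap14, 310 bp: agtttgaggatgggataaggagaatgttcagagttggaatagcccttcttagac
The 500 bp windows of these 5 probes hold 6 to 10 CpG, more than the 3.51 of the median Krtap gene. The CpG sites thus lie between the probes as well as in them.

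Promoter sequences were matched by symbol to RefSeq (build GRCm38.p6), which held 43 of the 67 genes on the chromosome of their probes, each as 300 bases around the start, most of them before it. CG was counted on these bases; it reads the same on both strands. The median promoter held 2.5 CpG in the Krtap class (14 matched), 5 in type I (16 matched) and 6 in type II (13 matched), against 7 over the 27025 promoters of the table. No CpG at all was found in 3 of the 14 Krtap promoters (21.4%), against 5.78% of all promoters. The 2 promoters below are shown because the data bear on them: Krtap14 has the most CpG of the matched Krtap promoters, 6, and Krt18 the most of the matched type I promoters, 17. Their coordinates belong to GRCm38.p6 and not to the build of the probes: chr16:88826096-88826395 on the minus strand and chr15:102027966-102028265 on the plus strand.
Krtap14 promoter: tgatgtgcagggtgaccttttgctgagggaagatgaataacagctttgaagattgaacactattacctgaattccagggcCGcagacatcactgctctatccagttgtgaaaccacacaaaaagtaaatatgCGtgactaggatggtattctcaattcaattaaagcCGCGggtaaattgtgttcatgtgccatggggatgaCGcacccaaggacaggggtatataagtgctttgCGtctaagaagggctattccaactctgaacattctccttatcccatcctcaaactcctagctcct
Krt18 promoter: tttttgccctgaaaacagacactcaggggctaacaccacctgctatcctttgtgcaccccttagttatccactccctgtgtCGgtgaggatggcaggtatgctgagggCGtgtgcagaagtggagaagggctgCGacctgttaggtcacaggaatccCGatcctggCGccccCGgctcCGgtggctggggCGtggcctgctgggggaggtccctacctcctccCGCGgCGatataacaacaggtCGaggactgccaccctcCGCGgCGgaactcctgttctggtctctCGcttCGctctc

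The level of a gene is the mean over its usable probes of log2 MeDIP over input, set so that the median probe of each array is 0. Type II keratins had the lowest levels: their class median was -0.13 and -0.06 in KO and WT decitabine cells and -0.10 and -0.08 in KO and WT untreated cells. Type I keratins sat near the middle at 0.07 and 0.09 in KO and WT decitabine cells and 0.10 and 0.05 in KO and WT untreated cells. Krtap genes gave 0.01 and 0.19 in KO and WT decitabine cells and 0.16 and 0.42 in KO and WT untreated cells, and the median over all genes was 0.02 and 0.05 in KO and WT decitabine cells and -0.04 and -0.03 in KO and WT untreated cells. The WT untreated array held the highest Krtap levels, with 22 of 24 genes above 0, against 12 on the KO decitabine, 19 on the WT decitabine and 18 on the KO untreated array.

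**Figure D1:**
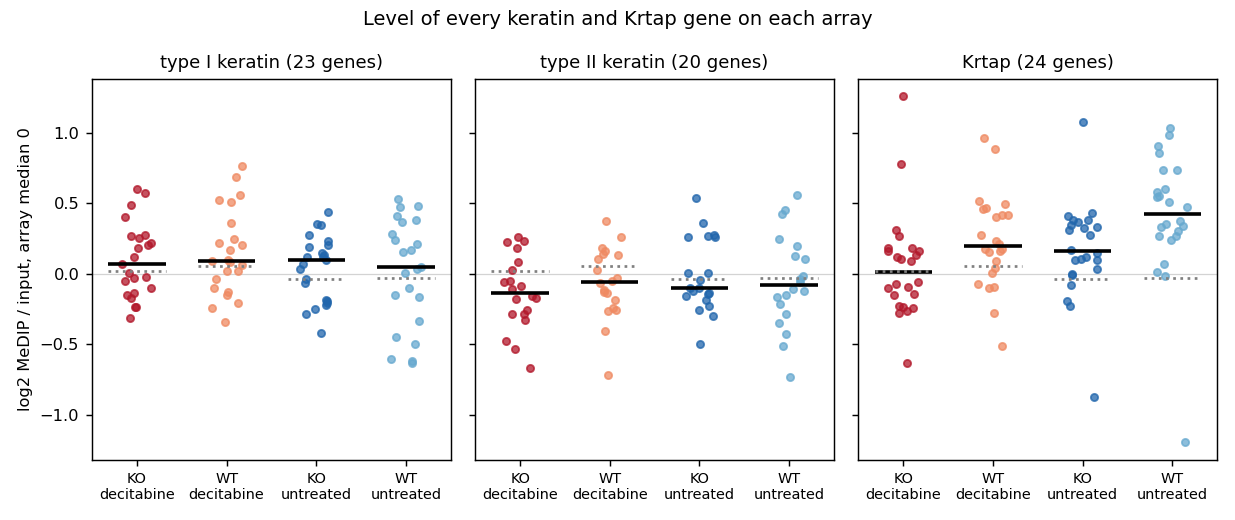
Level of every gene (points; log2 MeDIP over input, array median 0) on each array for the 3 classes; black bars are class medians and dotted bars the median over all 17034 genes. The Krtap class median was 0.42 on the WT untreated array and 0.01 on the KO decitabine array, and the type II median was below the all-gene median on every array.

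The Krtap excess moved with the input signal. Median input of Krtap genes, in log2 relative to the array's median probe, was 0.04 and -0.22 in KO and WT decitabine cells and -0.06 and -0.34 in KO and WT untreated cells, against 0.17 and 0.17 in KO and WT decitabine cells and 0.18 and 0.15 in KO and WT untreated cells over all genes. Input was dimmest on the WT untreated array, where the ratio was highest. Averaged over the 4 arrays, the Krtap median stood 0.20 above the all-gene median as a ratio, but -0.03 from it when the MeDIP channel was read alone. Across the 67 genes, Pearson's r between level and input was -0.23 and -0.55 in KO and WT decitabine cells and -0.78 and -0.87 in KO and WT untreated cells, against -0.16 and -0.52 in KO and WT decitabine cells and -0.74 and -0.85 in KO and WT untreated cells over all genes. These correlations are across genes, which are not independent, and the input enters both measures.

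The Krtap genes had the lowest CpG content and, except on the KO decitabine array, the highest class median, but within the class levels were higher where CpG was denser. Over the 24 Krtap genes Pearson's r between level and CpG per window was 0.57 and 0.49 in KO and WT decitabine cells and 0.39 and 0.49 in KO and WT untreated cells, where Spearman's rho was 0.15 on the KO untreated array. Over the 67 keratin and Krtap genes r was 0.04 and -0.14 in KO and WT decitabine cells and -0.27 and -0.43 in KO and WT untreated cells. Genes of a class share their clusters and are not independent. Among Krtap probes, 65 of 293 had at most 1 CpG in their window and 102 more had 2 to 3, and none had over 20. Set against all usable probes in the same CpG bin, the Krtap median was 0.01 and 0.05 in KO and WT decitabine cells and -0.01 and 0.17 in KO and WT untreated cells, with 12 and 14 of 24 genes above 0 in KO and WT decitabine cells and 11 and 18 in KO and WT untreated cells. Type I keratins came to -0.02 and -0.09 in KO and WT decitabine cells and -0.04 and -0.07 in KO and WT untreated cells on that scale. Type II keratins came to -0.19 and -0.21 in KO and WT decitabine cells and -0.20 and -0.20 in KO and WT untreated cells, and the median over all genes was 0.02 and 0.03 in KO and WT decitabine cells and -0.03 and -0.01 in KO and WT untreated cells, so type II keratins stood below it on each array when CpG content was matched. The bins match CpG content and not input signal. Averaged over the 4 arrays and not matched for CpG, the type II median stood -0.09 from the all-gene median. It stood at -0.02 with loess inside each array, -0.03 in the MeDIP channel alone and -0.18 without stand-in values (13 genes). The part of input was not tested. The Krtap excess on WT untreated cells was found on chromosome 16 (0.29 relative to the CpG bin) and chromosome 11 (0.37), and the 4 genes on chromosome 7 stood at -0.19.

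Few probes carried a MeDIP signal well above background. The share among keratin and Krtap probes was 12.7% and 12.5% in KO and WT decitabine cells and 3.13% and 3.62% in KO and WT untreated cells, against 16.01% and 14.1% of the probes of all genes in KO and WT decitabine cells and 4.04% and 4.05% in KO and WT untreated cells. Type I keratins gave 14.6% and 14.6% in KO and WT decitabine cells and 2.85% and 3.66% in KO and WT untreated cells. Type II keratins gave 11.2% and 12.1% in KO and WT decitabine cells and 2.79% and 3.95% in KO and WT untreated cells, and Krtap genes 11.6% and 9.56% in KO and WT decitabine cells and 4.10% and 3.07% in KO and WT untreated cells. Both decitabine arrays had more such probes than both untreated arrays in every class, as they did over all genes. Below background the scanner software puts in a stand-in value, which keratin and Krtap probes carried at 37.7% and 38.4% in KO and WT decitabine cells and 58.1% and 56.9% in KO and WT untreated cells.

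Of the 1215 probes, 1027 were well above background on no array, 29 on all 4, and 72 on both decitabine arrays and neither untreated one. None was so on both untreated arrays only. The 72 probes fell in 39 genes and made up 5.93% of keratin and Krtap probes, against 6.87% of all usable probes. By class the share was 7.32% in type I, 5.35% in type II and 4.44% in Krtap genes.

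The gap between decitabine and untreated arrays varied with CpG density. At 9 to 12 CpG per window, 34 and 39 of 180 keratin and Krtap probes were well above background on the KO and WT decitabine arrays, against 7 and 4 on the KO and WT untreated arrays. At 0 to 1 CpG the counts were 5 of 114 on each decitabine array and 2 on each untreated array. At over 20 CpG they were 4 of 26 on each decitabine array and 3 on each untreated array. These few probes do not size the gap there. Over all usable probes at over 20 CpG the share was 19.3% and 17.9% on the KO and WT decitabine arrays. On the KO and WT untreated arrays it was 5.10% and 4.11%. At 0 to 1 CpG those shares were 7.16% and 6.56% with decitabine and 2.20% and 2.82% without. Type I keratins supplied 20 and 24 of the probes well above background at 9 to 12 CpG on the KO and WT decitabine arrays. They also held 105 of the 180 probes of that bin. The difference in ratio was lowest where CpG was sparsest: the median decitabine minus untreated difference over keratin and Krtap probes was -0.49 in KO cells and -0.36 in WT cells at 0 to 1 CpG, and 0.13 in KO cells and 0.28 in WT cells at 9 to 12 CpG. At 13 to 20 CpG it was -0.04 in KO cells and 0.04 in WT cells, and over 20 it was 0.13 in KO cells and -0.02 in WT cells. Type II keratins departed from this at 9 to 12 CpG, with -0.30 in KO cells and 0.32 in WT cells. Over all usable probes those medians were -0.38 in KO cells and -0.29 in WT cells at 0 to 1 CpG, and 0.10 in KO cells and 0.14 in WT cells at 9 to 12 CpG.

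**Figure D2:**
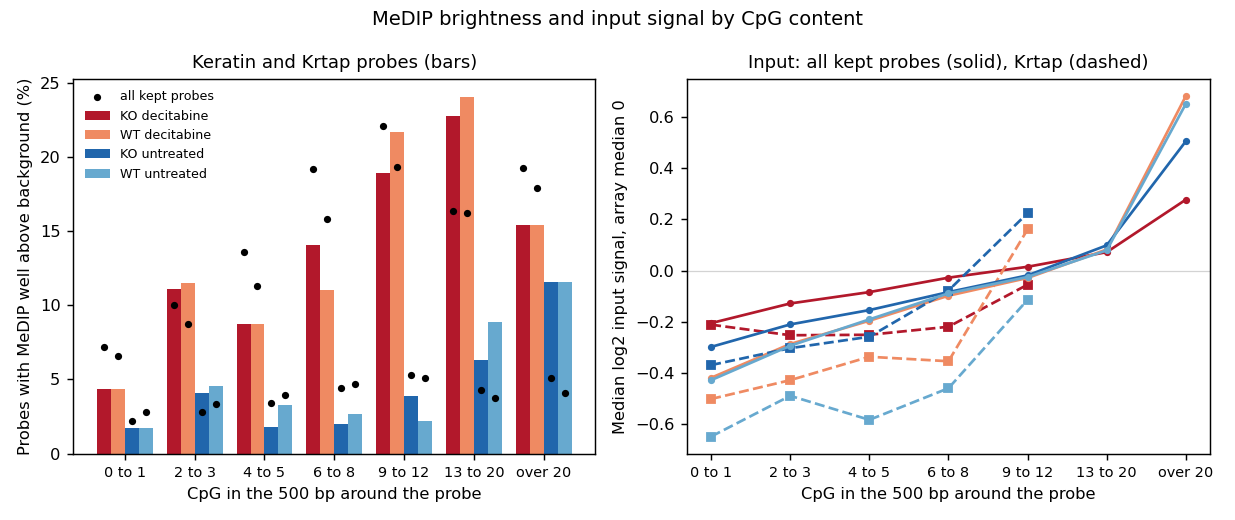
Left: percent of keratin and Krtap probes with MeDIP well above background by CpG count in the 500 bp window (bars, 4 arrays), with all usable probes as black dots. Right: median log2 input signal (array median 0) of all usable probes (solid lines, circles) and Krtap probes (dashed lines, squares; bins with at least 15 probes). At 9 to 12 CpG the bars reach 18.9% and 21.7% on the KO and WT decitabine arrays and 3.89% and 2.22% on the KO and WT untreated arrays.

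Near the gene start, the ratio was lower than farther upstream on the untreated arrays and on the WT decitabine array, but not on the KO decitabine array. The share of probes with MeDIP well above background was higher near the start on all 4 arrays. That share was 17.8% and 18.3% in KO and WT decitabine cells and 4.19% and 6.28% in KO and WT untreated cells within 500 bp of the start. More than 2000 bp upstream it was 10.8% and 9.23% in KO and WT decitabine cells and 2.37% in both KO and WT untreated cells. The median window held 8 CpG near the start and 4 far upstream, and the part of CpG content was not tested. Within 500 bp of the start the median of 191 probes was 0.05 and -0.11 in KO and WT decitabine cells and -0.16 and -0.12 in KO and WT untreated cells, and more than 2000 bp upstream the median of 379 probes was 0.00 and 0.07 in KO and WT decitabine cells and 0.19 and 0.24 in KO and WT untreated cells. Type II keratins had start regions at 0.00 and -0.37 in KO and WT decitabine cells and -0.19 and -0.65 in KO and WT untreated cells over 67 probes. Type I keratins had 0.05 and -0.16 in KO and WT decitabine cells and -0.28 and -0.38 in KO and WT untreated cells over 76 probes, lower than type II on the KO untreated array and higher on the other 3. Krtap start regions were higher than both on every array, at 0.25 and 0.32 in KO and WT decitabine cells and 0.09 and 0.16 in KO and WT untreated cells over 48 probes. These distances use GENCODE vM1 starts. RefSeq starts, placed in mm9 by sequence for 43 genes, differed by more than 100 bp in 4 of the 42 that could be compared (Krt14, Krt7, Krtap14 and Krtap15). With them type II had -0.08 and -0.45 in KO and WT decitabine cells and -0.35 and -0.63 in KO and WT untreated cells, below type I on all 4 arrays, so the order of these classes on the KO untreated array depends on the annotation.

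Decitabine was set against no treatment within each genotype. A gene was called where the 2 arrays differed at least 2-fold and at least 80% of its probes moved that way. In KO cells 0 of the 67 genes were called higher and 1 lower, against 0.376% and 0.0411% of all genes. In WT cells 0 were called in either direction, against 0.476% higher and 0.0704% lower over all genes. The single call was Krt86, a hair keratin, with levels of -0.48 in KO decitabine cells and 0.54 in KO untreated cells. It rests on 4 probes that lie 15720 to 16479 bp downstream of the annotated start, none of them well above background in MeDIP on any array, so no fold is given.

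Class medians under decitabine were lowest for the Krtap genes on this scale. The median difference, decitabine minus untreated, was 0.09 in KO cells and 0.07 in WT cells for type I keratins, near the all-gene medians of 0.09 and 0.09. Type II keratins had -0.07 in KO cells and 0.02 in WT cells. Krtap genes had -0.15 in KO cells and -0.19 in WT cells, with 8 and 6 of 24 genes above 0, against 62.1% and 62.8% of all genes. Relative to probes of the same CpG bin, the Krtap medians were 0.01 in KO cells and -0.10 in WT cells, with 12 and 8 of 24 genes above 0. The all-gene medians on that scale were 0.07 in KO cells and 0.06 in WT cells, with 10290 and 9930 of 17034 genes above 0. With loess inside each array the Krtap median minus the all-gene median shrank to -0.09 in KO cells and -0.06 in WT cells, against -0.24 and -0.29 without loess, and type II lay lower at -0.12 in KO cells and -0.11 in WT cells.

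**Figure D3:**
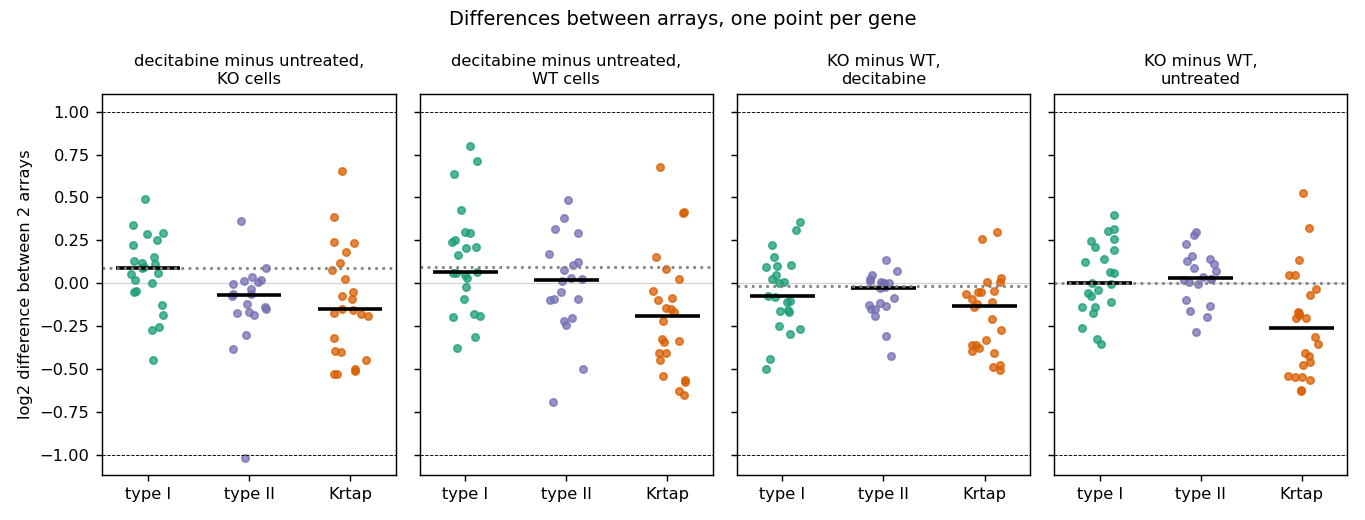
Log2 difference between 2 arrays for each gene (points) by class in the 4 comparisons; black bars are class medians, the dotted line is the all-gene median and dashed lines mark 2-fold. The only point past a dashed line is Krt86 in KO cells, whose probes were all near background in MeDIP, and the Krtap medians lie between -0.13 and -0.26.

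The 3 genes with the largest decitabine minus untreated difference in WT cells, among genes with a probe well above background on both arrays, were type I keratins. Krt17, a keratin of wounded epidermis and hair, stood at 0.20 and 0.20 in KO and WT decitabine cells, and at -0.29 and -0.60 in KO and WT untreated cells. Krt10, the type I keratin of the upper epidermis, had 0.60 and 0.76 in KO and WT decitabine cells, and 0.35 and 0.05 in KO and WT untreated cells. Krt18, of simple epithelia, had 0.12 and 0.02 in KO and WT decitabine cells, and -0.22 and -0.62 in KO and WT untreated cells. In each of the 3 genes both decitabine arrays were above both untreated arrays. The choice by the difference in WT cells favours that order, and the share of all genes with it was not counted. The decitabine minus untreated difference was above 0 in both genotypes in 8331 of all 17034 genes.

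MeDIP well above background was seen in those genes at more probes with decitabine, as it was over all genes. Of the probes of all genes, 16.01% and 14.1% were so on the KO and WT decitabine arrays. On the KO and WT untreated arrays 4.04% and 4.05% were. Krt18 had 8 and 6 of 23 such probes on the KO and WT decitabine arrays, against 1 and 1 on the KO and WT untreated arrays. Krt10 had 8 and 7 of 22 on the KO and WT decitabine arrays, against 3 and 1 on the KO and WT untreated arrays. Krt17 had 2 and 4 of 19 on the KO and WT decitabine arrays, against 1 and 1 on the KO and WT untreated arrays. The rest of the probes in these genes were near background, so the gene means also draw on dim values.

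A model across all 17034 genes (limma, genotype plus treatment) was the only fit with an error term. Its single residual degree of freedom is the departure of the 4 arrays from additivity, so its adjusted p-values do not measure the spread between cultures. At an adjusted p under 0.05, 5 of the 67 genes were higher with decitabine over both genotypes and 9 lower (7.46% and 13.4%), against 12.5% higher and 4.47% lower over all genes. Type I keratins had 3 higher and 1 lower of 23, type II keratins 0 higher and 2 lower of 20, and Krtap genes 2 higher and 6 lower of 24. The direction depends on the zero point: with arrays centred on probes bright in both channels, 0 were higher and 50 lower, while all genes shifted by -0.75 in KO and -0.45 in WT cells.

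Krt17 rose by 0.65 ± 0.13 log2 units (limma estimate with its standard error, adjusted p = 0.00799, 4 arrays), Krt10 by 0.48 ± 0.14 (adjusted p = 0.0328) and Krt18 by 0.49 ± 0.13 (adjusted p = 0.0235). With bright-probe centring the estimates were 0.05 for Krt17, -0.12 for Krt10 and -0.11 for Krt18, and with loess inside each array Krt18 gave 0.01. Krtap9-1 and Krtap5-2 (0.46 ± 0.13) were the other 2 genes called higher, and with bright-probe centring neither was. The 9 called lower were the hair keratins Krt31, Krt85 and Krt86 and Krtap15, Krtap16-1, Krtap16-5, Krtap4-7, Krtap5-1 and Krtap5-4. No probe of Krt85, Krt86, Krtap15, Krtap16-1, Krtap4-7, Krtap5-1 or Krtap9-1 was well above background in MeDIP on any array. Krt31 and Krtap16-5, both called lower, each had 1 such probe on each decitabine array and 0 on the untreated arrays. The same counts held for Krtap5-2, called higher. Krtap5-4 had 1 such probe on every array.

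Within Krt10, a higher ratio with decitabine was seen at 3 exonic probes 1806 to 2138 bp downstream of the start (chr11:99248513-99248895), a stretch chosen after its values were seen. Their mean was 1.67 ± 0.30 and 1.86 ± 0.15 on the KO and WT decitabine arrays, and 1.15 ± 0.43 and 0.54 ± 0.44 on the KO and WT untreated arrays (SD over 3 probes of 1 array). All 3 probes were well above background with decitabine, against 2 in KO untreated and 0 in WT untreated cells. The SD is among neighbouring probes and not among cultures.

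Krt18 differed along its length, at probes again chosen after their values were seen, as was the Krt17 run below. The 3 probes nearest its start, with 26 to 29 CpG per window, had mean ratios of -0.10 and -0.99 on the KO and WT decitabine arrays and -0.98 and -1.48 on the KO and WT untreated arrays. All 4 means were below the array's median probe, as were the medians of all usable probes with over 20 CpG. Those medians were -0.14 and -0.55 on the KO and WT decitabine arrays and -0.58 and -0.80 on the KO and WT untreated arrays. At 4458 bp upstream, in a window of 7 CpG, 1 probe had 2.52 and 1.51 in KO and WT decitabine cells and 0.86 and 1.32 in KO and WT untreated cells, and was well above background on the decitabine arrays only. Upstream of Krt17, 5 probes 331 to 1014 bp from the start averaged 1.15 and 1.58 in KO and WT decitabine cells and 0.48 and -0.03 in KO and WT untreated cells. Of those 5, 0 and 2 were well above background on the KO and WT decitabine arrays and none on the untreated arrays.

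Krtap14 had the highest mean level over the 4 arrays, but not the highest on each array. It had 1.26 and 0.96 in KO and WT decitabine cells and 1.08 and 0.55 in KO and WT untreated cells. These were the highest of the 67 genes on the KO decitabine, WT decitabine and KO untreated arrays. Krtap9-1 was close on the WT decitabine array at 0.89. On the WT untreated array several Krtap genes were above Krtap14. Krtap16-5 was highest there at 1.03, and Krtap4-7 (0.98), Krtap6-2 (0.90) and Krtap8-2 (0.86) were among the others. The 5 probes printed above averaged 2.14 ± 0.71 and 1.45 ± 0.38 in KO and WT decitabine cells and 1.62 ± 0.43 and 0.34 ± 0.29 in KO and WT untreated cells (SD over 5 probes of 1 array). On the WT untreated array none of them exceeded 0.68, and on the other 3 arrays none was under 0.92. MeDIP was well above background at 5 and 3 of the 5 in KO and WT decitabine cells and at 1 and 0 in KO and WT untreated cells. Because no probe was so on the WT untreated array, no fold against it is given.

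**Figure D4:**
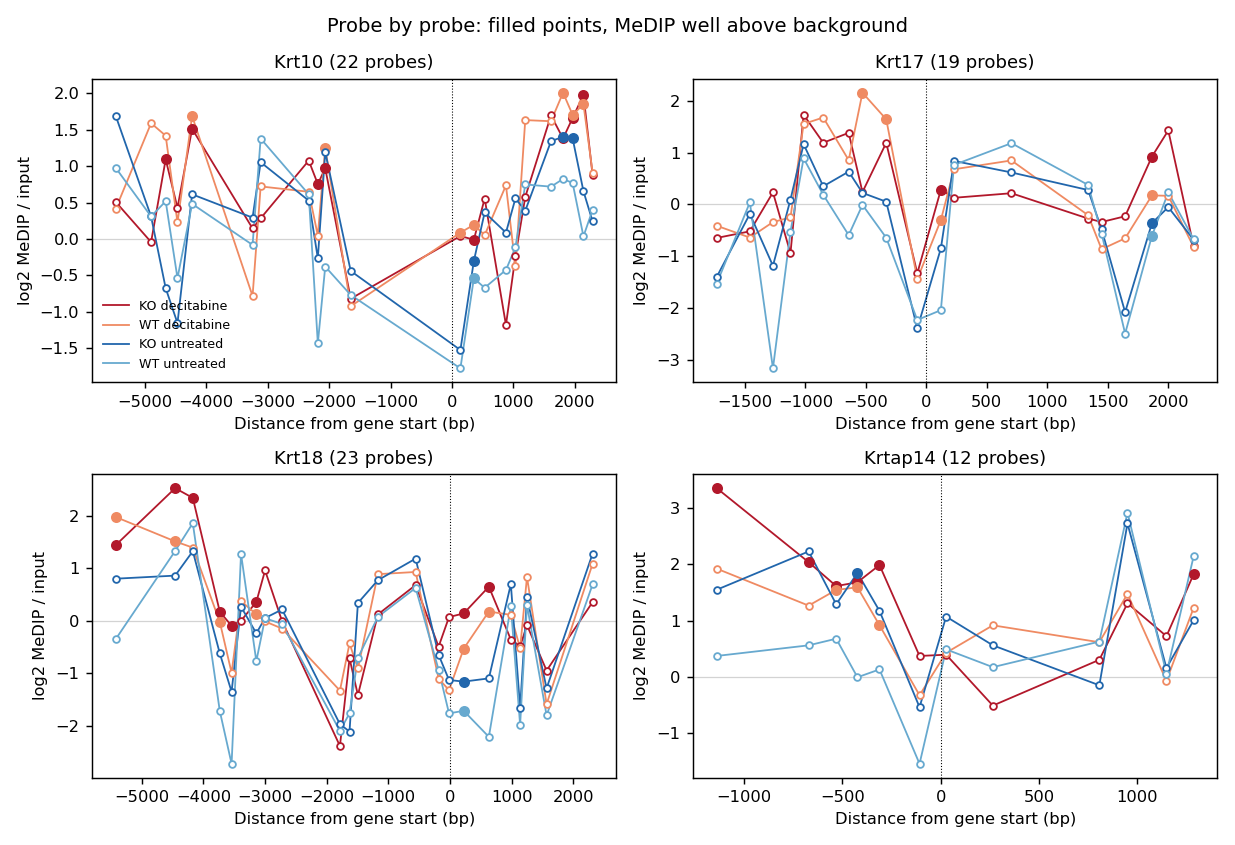
Log2 MeDIP over input at each usable probe against its distance from the gene start for Krt10, Krt17, Krt18 and Krtap14, 1 line per array; filled points had MeDIP well above background. In Krtap14 the 5 probes from 310 to 1138 bp upstream of the GENCODE vM1 start averaged 2.14, 1.45 and 1.62 on the KO decitabine, WT decitabine and KO untreated arrays and 0.34 on the WT untreated array.

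Other genes with a probe well above background on both arrays moved in both directions. In WT cells Krt42 was higher by 0.42 with decitabine and Krt8, the type II partner of Krt18, by 0.31. In KO cells Krtap16-4 was higher by 0.39 and Krt19, a keratin of simple epithelia, by 0.29. On the lower side in WT cells were Krtap8-2 (-0.65), Krtap5-4 (-0.63), Krtap13-1 (-0.32), Krt84 (-0.22) and Krt39 (-0.20). In KO cells they were Krtap16-8 (-0.53), Krtap13-1 (-0.40), Krtap5-4 (-0.39), Krt79 (-0.30) and Krt34 (-0.26). None reached 2-fold at this centring. Some signs changed with the processing. In WT cells Krt39 was 0.32 with the median over probes, and 0.09 without stand-in values. Without them Krt84 was 0.12, and Krtap8-2 shrank to -0.10. Krt42 was -0.09 with loess, and Krt8 -0.13 with bright-probe centring. In KO cells Krtap16-4 was -0.12 and Krt19 -0.03 with loess. Krtap8-2, Krtap5-4 and Krtap13-1 stayed lower in WT cells under every setting that measured them.

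KO cells were set against WT cells with and without decitabine. No keratin or Krtap gene was called in either, against 0.235% higher and 0.0704% lower over all genes with decitabine and 0.106% higher and 0.135% lower without treatment. Type I and type II medians, KO minus WT, were -0.07 and -0.02 with decitabine, where the all-gene median was -0.02, and 0.00 and 0.03 without treatment, where it was 0.00. The Krtap median was -0.13 with decitabine and -0.26 without treatment, and 5 of 24 genes were above 0 in each. Relative to probes of the same CpG bin it was 0.02 with decitabine and -0.17 without treatment. Input of the Krtap genes was higher in KO cells by a median of 0.18 with decitabine and 0.19 without treatment, against 0.00 with decitabine and 0.02 without treatment over all genes, and its part in the lower ratio was not tested.

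Individual genotype differences were read among genes with a probe well above background on both arrays. With decitabine Krtap13-1 was lower by 0.50, Krtap16-10 by 0.48 and Krtap16-5 by 0.41 in KO cells, and the type I genes Krt34 and Krt20 were lower by 0.50 and 0.44. On the higher side with decitabine were Krt19 (0.36), Krt33a (0.31), Krtap14 (0.30), Krt27 (0.22) and Krt12 (0.16), the last a keratin of the cornea. Without treatment the 4 genes that were lowest in KO cells were Krtap genes of chromosome 16. Krtap16-4 was lower by 0.62 in KO untreated cells, Krtap8-2 by 0.55, Krtap13-1 by 0.43 and Krtap16-7 by 0.31, and the type I gene Krt34 was lower by 0.26. Without treatment Krt18 (0.40), Krt17 (0.32), Krt10 (0.30) and Krt42 (0.21), all type I, were higher in KO cells, and the type II gene Krt79 by 0.28.

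The partners of the best-known filament pairs were read side by side. Here and for the keratins below, the share of all genes whose decitabine and untreated arrays do not overlap was not counted. Krt5, the type II keratin of the basal layer, had 0.08 and 0.10 in KO and WT decitabine cells and 0.27 and 0.20 in KO and WT untreated cells. Its partner Krt14 had -0.10 and -0.13 in KO and WT decitabine cells and -0.20 and -0.34 in KO and WT untreated cells. Decitabine arrays were thus lower than untreated ones for Krt5 and higher for Krt14. Krt1, partner of Krt10 in the upper epidermis, had 0.18 and 0.18 in KO and WT decitabine cells and 0.26 and 0.42 in KO and WT untreated cells, lowest on the decitabine arrays, where Krt10 was highest. Krt8 had -0.09 and 0.03 in KO and WT decitabine cells and -0.13 and -0.29 in KO and WT untreated cells, and both decitabine arrays were above both untreated ones, as in its partner Krt18.

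Of the mucosal pair, Krt4 had -0.29 and -0.26 in KO and WT decitabine cells and -0.14 and -0.17 in KO and WT untreated cells, lower with decitabine. Its partner Krt13 had -0.05 and 0.25 in KO and WT decitabine cells and -0.07 and 0.01 in KO and WT untreated cells, and the arrays overlapped. Of the keratins of wounded epidermis, Krt6a had 0.22 and 0.37 in KO and WT decitabine cells and 0.36 and 0.25 in KO and WT untreated cells. Krt16 had -0.03 and -0.04 in KO and WT decitabine cells and 0.10 and -0.10 in KO and WT untreated cells. In both of these the decitabine and untreated arrays overlapped.

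Among the remaining well-known keratins, Krt2 of the upper epidermis had -0.06 and 0.13 in KO and WT decitabine cells and 0.00 and -0.03 in KO and WT untreated cells. Krt15 of the basal layer had 0.26 and 0.22 in KO and WT decitabine cells and 0.15 and 0.15 in KO and WT untreated cells. For Krt2 the decitabine and untreated arrays overlapped, and for Krt15 both decitabine arrays were higher. Krt7 of simple epithelia had -0.29 and -0.14 in KO and WT decitabine cells and -0.30 and -0.43 in KO and WT untreated cells. Krt20 of simple epithelia had 0.07 and 0.51 in KO and WT decitabine cells and 0.07 and 0.21 in KO and WT untreated cells. The WT decitabine array was highest for both. The hair keratin Krt31 had -0.17 and 0.10 in KO and WT decitabine cells and 0.27 and 0.41 in KO and WT untreated cells. Krt71, of the hair follicle, had -0.18 and -0.19 in KO and WT decitabine cells and -0.19 and -0.21 in KO and WT untreated cells. Krt31 was lower on both decitabine arrays than on both untreated ones, and Krt71 was at nearly the same level on all 4.

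The extremes of level in each class were as follows. Krt10, Krt222 and Krt25 were the highest type I genes over the 4 arrays, and Krt27, Krt42 and Krt9 the lowest. Krt222 had 0.57 and 0.68 in KO and WT decitabine cells and 0.44 and 0.48 in KO and WT untreated cells. Krt42 had -0.31 and -0.21 in KO and WT decitabine cells and -0.42 and -0.63 in KO and WT untreated cells. In type II, Krt1, Krt6a and Krt77 were highest, and Krt7, Krt78 and Krt79 lowest. Krt78 was lowest of its class on the decitabine and untreated arrays alike, at -0.67 and -0.71 in KO and WT decitabine cells and -0.50 and -0.73 in KO and WT untreated cells. In the Krtap class Krtap14, Krtap16-5 and Krtap9-1 were highest, and Krtap5-2, Krtap5-5 and Krtap6-1 lowest. Krtap5-2, on 3 probes, had -0.63 and -0.51 in KO and WT decitabine cells and -0.87 and -1.19 in KO and WT untreated cells. Probes well above background on all 4 arrays were most numerous in Krt19, Krt222, Krt73, Krt75, Krt84 and Krtap8-2, with 2 each.

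Genes around the keratins in epithelial biology were read by the same fit. Of 14 other intermediate filament genes, 2 were called higher with decitabine (Gfap and Lmna) and none lower. Of 21 cornified envelope and keratin partner genes, 0 were called higher and 5 lower (Lor, Sprr1b, Sprr2b, Lce1c and Csta). Of 15 regulators of epidermis and hair, 1 was called higher (Klf4) and 0 lower. Their background is the same 12.5% higher and 4.47% lower. The cornified envelope genes had a median of 3.23 CpG per window, close to the 3.51 of the Krtap genes, whereas the regulators had 17.9.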

How the data were processed

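The authors deposited 1 scanner file per array, made with Feature Extraction 10.5 from Agilent (per the submitters' processing notes). The deposited intensity values are linear. Per the file headers, background was subtracted and detrended, signals too near background were replaced by surrogate values, and the dyes were normalized to each other. The deposited log ratio is on the log10 scale, Cy5 over Cy3, and was used as an alternative. The deposited series value table was not used, since its identifiers match no probe column. Per the file headers the build is mm9.

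For each array the log2 ratio of Cy3 (MeDIP) to Cy5 (input) processed signal was taken, spots of a probe were averaged, and the array was centred on the median of the probes used. A probe was used where input was well above background on all 4 arrays and no spot was marked as a non-uniformity outlier (328399 of 520554 probes, 63.1%; 1215 of 1884 keratin and Krtap probes, 64.5%). "Well above background" is the scanner software's own flag. No keratin or Krtap probe was saturated, and none had a second exact copy within 2 Mb on its chromosome. Genes took the mean over at least 3 probes. CpG were counted in mm9, and gene positions came from GENCODE vM1.

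The additive model was fitted with limma 3.58.1 in R 4.3.3 with Benjamini-Hochberg adjustment over 17034 genes and tested on simulated data. The number of arrays, 1 per group, limits the precision, as does MeDIP signal near background at most probes. The keratin and Krtap genes and the gene lists were chosen with earlier results of these data known. Genes were named by rule: in each comparison the 5 with the largest rise and the 5 with the largest fall among those with a probe well above background on both arrays, every called gene, the 3 highest and 3 lowest of each class, the 5 with most probes well above background on all 4 arrays, and 20 well-known keratins. Genes called by the model were named in addition, after their values were seen. The probe runs described in Krtap14, Krt10, Krt17 and Krt18 were chosen after their values were seen. Alternatives covered the centring, the deposited log ratio, the median over probes, loess, normexp background correction, outlier spots, at least 5 probes per gene, the MeDIP channel alone, surrogate values and the share of probes asked for a call and RefSeq starts. Promoters were matched by symbol; Krtap16-1 was left unmatched, since RefSeq has that symbol on another chromosome.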

Additional observations from a re-analysis of the deposited data

Results flagged for a closer look

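Some keratin and Krtap genes moved in opposite directions, by at least 0.1 log2 units each way, in 2 groups under the same contrast. With 1 array per group these differences were not tested. KO minus WT was -0.16 with decitabine and 0.30 without for Krt10, and 0.16 with decitabine and -0.11 without for Krt12. It was -0.13 with decitabine and 0.28 without for Krt79, and -0.12 with decitabine and 0.16 without for Krt8. Decitabine minus untreated was -0.30 in KO cells and 0.11 in WT cells for Krt79. It was 0.39 in KO cells and -0.14 in WT cells for Krtap16-4, and 0.12 in KO cells and -0.15 in WT cells for Krtap16-7. Over the 67 genes the decitabine minus untreated difference was above 0 in both genotypes in 21, below 0 in both in 26 and of opposite sign in 20, against 8331, 4097 and 4606 of all 17034 genes.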

How the results depend on the processing

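No paired analysis was possible because each group had 1 array and so no replicate number to pair by; limma's additive model has genotype as a term. Centring on the probes bright in both channels lowered every decitabine minus untreated difference by 0.75 in KO and 0.45 in WT cells, and gave 14 and 5 keratin and Krtap genes at least 2-fold lower in KO and WT cells, and 0 higher and 50 lower in limma's additive model (0 higher and 58 lower at an unadjusted p under 0.05). Krt10 (-0.12), Krt18 (-0.11), Krtap5-2 (-0.14) and Krtap9-1 (-0.064) then turned to lower. The single call, Krt86 in KO cells, was lost (0 genes) with the deposited log ratio, the median over probes, loess, at least 5 probes per gene, the MeDIP channel alone, centring on all probes and no surrogate values. The last gave 2 genes at least 2-fold higher in WT cells.

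In limma's model 4 genes were lower with the deposited log ratio, 1 higher and 2 lower with the median over probes, 0 higher and 1 lower with normexp (1 and 4 at an unadjusted p under 0.05), 3 and 15 with the MeDIP channel alone, 9 and 5 with centring on all probes, and 15 and 1 without surrogate values. Loess left 0 and 0 (3 and 13 at an unadjusted p under 0.05). Krtap15 turned to 0.094 with loess, Krtap9-1 to -0.0095 with normexp and Krtap16-5 to 0.025 without surrogate values. The causes were not tested. The Krtap median minus the all-gene median was -0.026 in the MeDIP channel alone, against 0.20, and the type I median 0.027 without surrogate values, against 0.15. Of the values for class levels, the median difference of all 67 genes and call counts, 151 stayed within 0.1 log2 units or 1.5 times. Another 27 moved by more, some of them given above. Call counts that stayed at 0 are among the 151. Single-gene differences moved as well, some to the opposite sign. Of the class-by-class median differences between arrays, 108 moved by less than 0.1 and 12 by more. Class levels and median differences were taken less the all-gene median, so a change of centring could not move them. Those settings add to both counts of unmoved values. The bound of 0.1 also exceeds some of the differences, such as -0.03 for type I keratins with decitabine in WT cells. The Krtap decitabine minus untreated median, less that of all genes, ran from -0.30 to -0.09 in KO cells (-0.24 in the report) and from -0.41 to -0.06 in WT cells (-0.29), nearest 0 with loess in both; in WT cells normexp gave -0.14 and the MeDIP channel alone -0.15. Centring on all probes, leaving out surrogate values and RefSeq starts were added after the data were seen. Most probes had MeDIP near background, which limits every gene mean.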
